A study of Mus musculus with 28 samples.

Results

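Collagen genes were followed in the dorsal hippocampus of mice after auditory fear conditioning combined with ligands of the glucocorticoid receptor. A gene was taken as a member when its mouse symbol consisted of Col, a number, the letter a and a second number, which selected 44 of the 50686 genes in the count table. The rule rests on the symbol alone and used no measured value. RNA-seq counts were available for 28 libraries in 6 groups, all from dorsal hippocampus of male C57Bl6 mice. After auditory fear conditioning the mice had received Cort, RU486, C108 or C118 (5 libraries each) or Vehicle (4 libraries), and the Basal group (4 libraries) had neither conditioning nor treatment. RU486 is mifepristone, which blocks the receptors for glucocorticoids and progesterone, and the structures behind the code names C108 and C118 are not given in the labels. The sources used here give no doses, times or ages. Libraries are named here by their group and the number in the sample title. The labels do not state that each library came from a separate mouse, so p-values measure the spread between these libraries.

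Collagens are extracellular proteins built from 3 chains wound into a triple helix, and the chains of a molecule often come from different genes that must be expressed in the same cell. Fibril-forming collagens give tissues tensile strength, the network-forming type IV chains build basement membranes, and fibril-associated and transmembrane collagens link fibrils or cells to the matrix. Healthy brain tissue holds little fibrillar collagen, and most of its collagen lies in the basement membranes of vessels, in the meninges and in the choroid plexus, while a few transmembrane and fibril-associated collagens are made by neurons.

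Where partner chains lie in the genome is shown first, since several pairs are neighbours and their levels are compared further on. By GENCODE M21 gene models of the mm10 build (GRCm38), Col4a1 (chromosome 8, 11198423 to 11312826, minus strand) and Col4a2 (chromosome 8, 11312805 to 11449287, plus strand) lie head to head, with first exons that overlap by 22 bases. Col4a3 and Col4a4 lie head to head on chromosome 1 with 71 bases between their starts, and Col4a5 and Col4a6 do so on the X chromosome with 1308 bases between them. Col6a1 and Col6a2 lie on the same strand of chromosome 10 with 85161 bases between the genes. The chains of the pairs Col1a1 and Col1a2 (chromosomes 11 and 6) and Col8a1 and Col8a2 (chromosomes 16 and 4) are encoded on separate chromosomes. The stretch between the Col4a3 and Col4a4 starts is shown because it is the whole distance between this pair. It lies at chr1:82586850-82586920 and is written 5′ to 3′ on the minus strand, the strand of Col4a4. The windows before the starts of Col8a1 (chr16:57754738-57754987, minus strand) and Col8a2 (chr4:126286544-126286792, plus strand) are shown because these unlinked genes moved together more closely than any other pair compared below. All are RefSeq sequence of GRCm38.p6, and capitals mark GGGCGG or its reverse complement, the core of the GC box, where matches may overlap each other.
Col4a3 and Col4a4 gap: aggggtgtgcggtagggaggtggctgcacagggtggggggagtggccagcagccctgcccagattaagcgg
Col8a1: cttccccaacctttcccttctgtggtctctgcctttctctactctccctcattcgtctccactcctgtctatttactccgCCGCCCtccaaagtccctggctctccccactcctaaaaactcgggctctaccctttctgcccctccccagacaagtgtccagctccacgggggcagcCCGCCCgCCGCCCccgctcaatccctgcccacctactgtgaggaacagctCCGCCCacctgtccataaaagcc
Col8a2: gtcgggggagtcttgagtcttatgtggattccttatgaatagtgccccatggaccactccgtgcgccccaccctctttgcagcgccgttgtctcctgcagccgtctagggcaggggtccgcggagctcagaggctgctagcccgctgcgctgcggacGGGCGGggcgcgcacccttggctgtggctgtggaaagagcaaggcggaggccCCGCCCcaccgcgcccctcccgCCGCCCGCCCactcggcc
The Col8a1 and Col8a2 windows held 4 matches each, and the gap between Col4a3 and Col4a4 held 0. RefSeq windows of 250 bases before the start were on hand for 35 members (38 windows in all), and 9 members had none. GGGCGG on either strand was in 22 of the 38 member windows (57.9%) and in 32.7% of all 32851 windows. CCAAT was in 34.2% of member windows and in 33.8% of all windows, and TATAAA was in 13.2% of member windows and in 12.4% of all windows. These matches describe letters in short windows and are not evidence of binding.

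Levels per length, as reads per kilobase of annotated exon and per M counts (RPKM; M, 1e+06), placed a transmembrane and neuron-associated collagen at the top of the family. Col25a1 (ENSMUSG00000058897, chromosome 3), which encodes a transmembrane collagen of neurons that can shed its extracellular part, averaged 6.08 ± 0.582 RPKM (SD, n = 28). It was also among the steadiest, with a coefficient of variation of 9.57% across libraries. The basement membrane chains followed, with Col4a2 at 4.70 ± 0.680 RPKM and Col4a1 at 3.34 ± 0.847 RPKM (SD, n = 28). Col11a2, a chain of the minor fibrillar type XI collagen, averaged 3.04 ± 0.480 RPKM, and Col9a3, a chain of the fibril-associated type IX collagen, averaged 2.97 ± 1.29 RPKM (SD, n = 28). The spreads of Col4a1, Col11a2 and Col9a3 between libraries overlapped, and their order within libraries was not tested. The chains of type I collagen, the main fibrillar collagen of skin and bone, were far lower, with Col1a1 at 0.406 ± 0.169 RPKM and Col1a2 at 0.378 ± 0.190 RPKM. Col3a1, the chain of type III collagen of vessel walls, averaged 0.0824 ± 0.0481 RPKM. With the longest transcript in place of all exons as the length, Col25a1 stood further above the others, at 11.7 RPKM, and Col1a2 came to 0.878 RPKM.

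**Figure D1:**
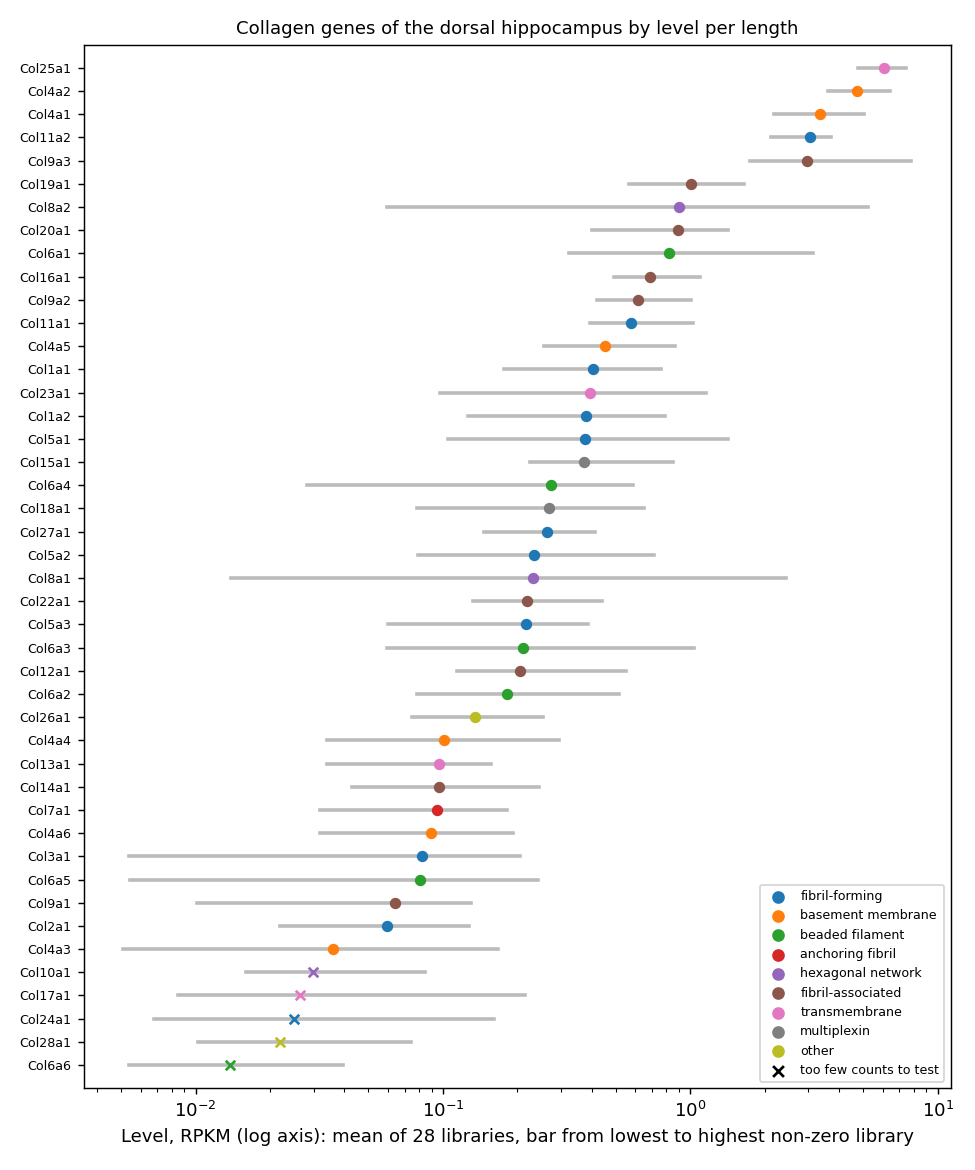
Mean level per length of each of the 44 collagen genes over 28 libraries, in RPKM on a log axis, with a bar from the lowest to the highest non-zero library, coloured by structural class, and crosses for genes with too few counts to test. Col25a1 stands at the top with 6.08 RPKM, and Col8a1 and Col8a2 have the longest bars among the tested genes.

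In all, 5 tested members averaged at least 10 counts per M (CPM) and 9 averaged below 1 CPM. Among tested members, variation between libraries was widest for the chains of type VIII collagen, which forms hexagonal networks in the membranes under endothelial cells, with coefficients of variation of 211% for Col8a1 and 124% for Col8a2. A further 5 members were too low to judge and were left out of every test by the count filter. Col10a1, the collagen of growth plate cartilage, had 50 counts in total and was at 0 in 7 libraries. Col17a1, the transmembrane collagen of hemidesmosomes, had 82 counts in total and was at 0 in 10 libraries, with 21 of its counts in RU486 6. Col24a1 had 103 counts, of which 24 were in Vehicle 29 and 15 in Vehicle 16. Col28a1 had 58 and Col6a6 had 68 counts in total.

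Gene counts ranged from 16.2 to 20.3 M per library. Markers of dentate gyrus, CA1 and CA3 were present in each library, with summed levels of 502 to 1020.3 CPM for dentate gyrus, 704 to 1368 CPM for CA1 and 1006 to 1945 CPM for CA3 and CA2 markers. Libraries stood apart within groups in markers of other regions and cell types. Vehicle 16 had 1080.3 CPM of thalamus markers, against 249 to 574 CPM in the other 27 libraries. Vehicle 29 had the lowest dentate gyrus sum (502 CPM) and the highest astrocyte sum (6985 CPM). Choroid plexus markers summed to 4406 CPM in RU486 6, 2698 CPM in RU486 25 and 1719.5 CPM in Cort 4, against 35.0 to 972 CPM elsewhere. Endothelial markers were lowest in C108 39 (112 CPM) and C118 38 (113 CPM), against up to 347 CPM in Cort 4. The same pair of libraries had the lowest astrocyte sums, 3635 CPM in C108 39 and 3409 CPM in C118 38. Cort 36, C118 38 and C108 39 have the highest numbers in the sample titles and the lowest shares of counts in the summary rows of the table (12.6% to 13.8%, against 14.1% to 19.7% in the other libraries). The labels do not say what the numbers stand for. Their part in the results was not tested, beyond fits without these libraries that are given further on. In such bulk samples fewer cells of a type and less RNA per cell cannot be told apart.

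**Figure D2:**
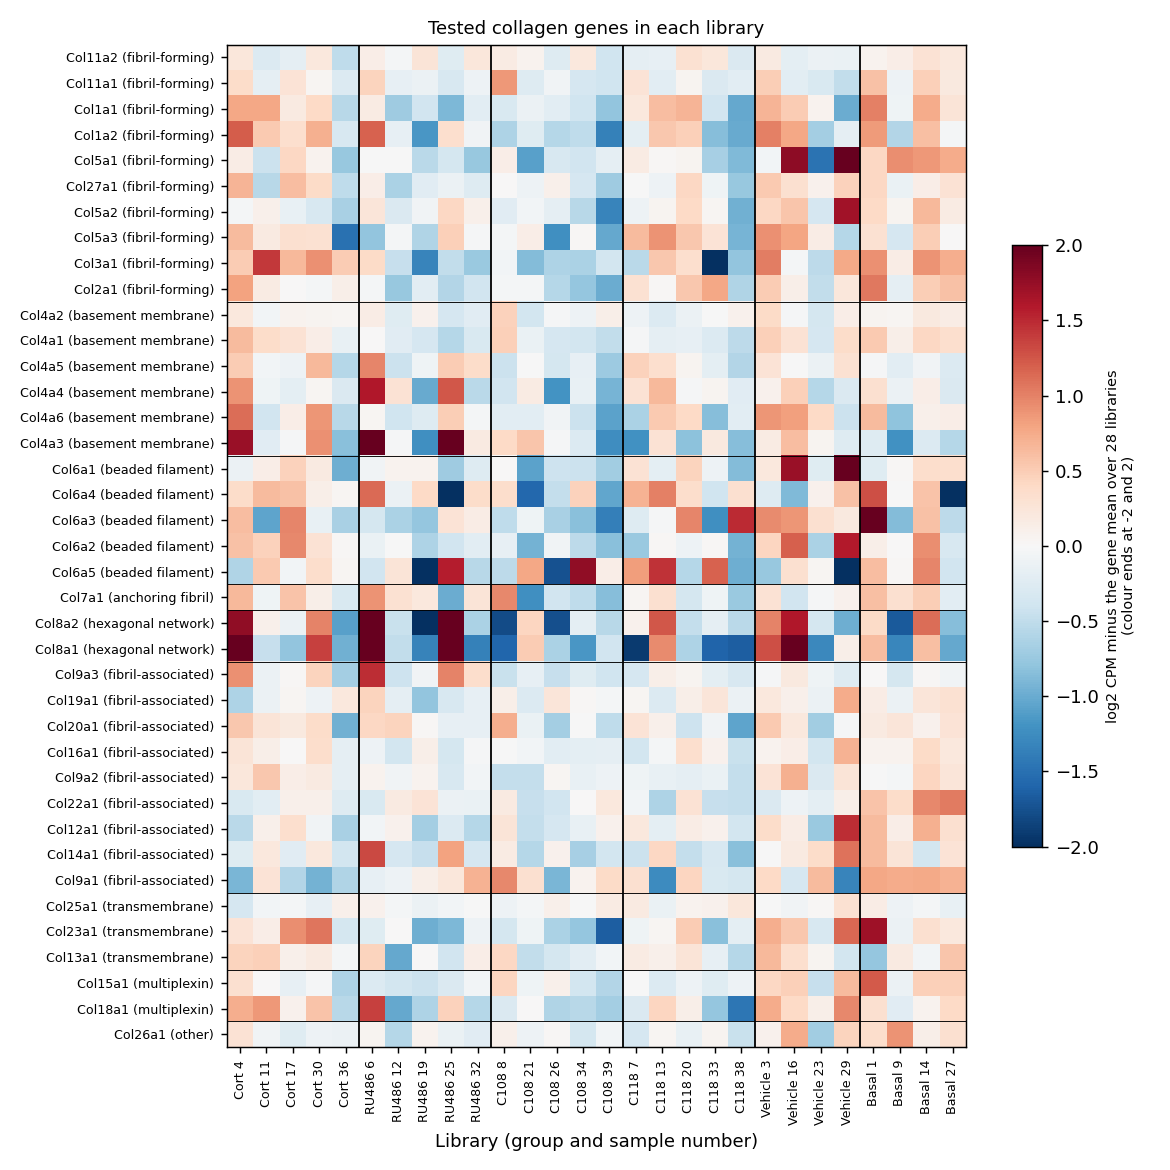
Log2 CPM of each of the 39 tested collagen genes in each of the 28 libraries, minus the gene's mean, with groups separated by vertical lines and structural classes by horizontal lines. Red columns stretch over many genes in Basal 1, Vehicle 29 and RU486 6, where 6, 8 and 8 members had their highest level, and blue columns in C108 39 and C118 38, where 8 members each had their lowest.

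The first question was whether fear conditioning, with a ligand or with Vehicle, went with a different level of collagen genes. Conditioning and treatment cannot be told apart here, since the Basal mice had neither. Against the Basal group, the mean of the 5 conditioned groups was lower for Col22a1 and Col15a1. Col22a1 encodes a fibril-associated collagen known from tissue junctions such as those of muscle and tendon, and Col15a1 a collagen known from the zone between basement membrane and surrounding matrix. These 2 of 39 tested members passed the edgeR quasi-likelihood test (Benjamini-Hochberg adjusted p under 0.05 over all genes), both lower, and 11.2% of all tested genes did (6.29% lower and 4.89% higher), against 5.13% of the members. Without Vehicle 16 and Vehicle 29, 5 members were called and 12.2% of all tested genes. Without Basal 1, 1 member and 4.83% of all genes were called, and without Basal 9 or C108 8 there were 5 and 4 called members, with 11.3% and 12.6% of all genes. The median log2 fold change of the members was -0.19, against 0.01 over all genes, with 32 members below 0 and 7 above. At an unadjusted p under 0.05 there were 12 members (30.8%), against 25.4% of all genes.

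Col22a1 (ENSMUSG00000079022, chromosome 15, 71795795 to 72034227, minus strand) had 1.53, 1.64, 2.06, 2.08 and 1.59 CPM in the Cort libraries and 1.54, 2.19, 2.34, 1.77 and 1.74 CPM in the RU486 libraries. It had 2.19, 1.37, 1.44, 1.93 and 2.24 CPM in the C108 libraries, 1.86, 1.22, 2.37, 1.37 and 1.36 CPM in the C118 libraries and 1.55, 1.80, 1.67 and 2.10 CPM in the Vehicle libraries. In the Basal libraries it had 2.92, 2.52, 3.86 and 4.05 CPM. The 24 conditioned libraries all lay below the 4 Basal libraries, the highest conditioned library having 2.37 CPM. Col22a1 was the 1 member with this separation, which 0.729% of all tested genes had in the lower direction. The log2 fold change was -0.90 (SE 0.15, edgeR adjusted p = 0.000208), and it kept its direction and its call under all 36 alternatives run, between -1.01 and -0.79.

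Col15a1 (ENSMUSG00000028339, chromosome 4, 47208161 to 47313167, plus strand) had a median of 2.11 CPM in the conditioned libraries, with a range of 1.43 to 3.58 CPM. It had 5.43, 2.08, 3.20 and 3.18 CPM in the Basal libraries, of which Basal 1 was the highest of the series and Basal 9 lay amid the conditioned ones. The log2 fold change was -0.67 (SE 0.18, edgeR adjusted p = 0.0163), and without Basal 1 it was -0.37 with an adjusted p of 0.327, so the call rests on that library.

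Col4a1, which pairs with Col4a2 in the main basement membrane network, did not pass, its log2 fold change being -0.38 (SE 0.14, edgeR adjusted p = 0.0735). It averaged 23.98 ± 6.18 CPM in conditioned libraries (SD, n = 24) and 30.9 ± 3.53 CPM in Basal libraries (SD, n = 4), with overlap. Without C108 8, in which Col4a1 was at 33.9 CPM, the log2 fold change was -0.42 with an adjusted p of 0.0158. Its partner Col4a2 averaged 30.8 ± 4.74 CPM in conditioned libraries and 33.2 ± 1.74 CPM in Basal libraries. All 10 tested fibril-forming genes had a log2 fold change below 0 (median -0.32), with Col3a1 at -0.78 (SE 0.31, adjusted p = 0.111) and Col1a1 at -0.55 (SE 0.26, adjusted p = 0.171), and 0 of them passed. Among the fibril-forming genes, Col5a1 was at -0.71 (edgeR adjusted p = 0.169). Without Vehicle 16 and Vehicle 29, which leaves 2 Vehicle libraries, Col5a1 was at -1.08 with an adjusted p of 0.00102. Both tested type VIII chains lay above 0. Col25a1 was at 79.0 ± 7.64 CPM in conditioned libraries and 76.7 ± 7.51 CPM in Basal libraries.

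Markers of vessel cells moved in the same comparison. Of 14 tested endothelial markers 6 fell and 0 rose, with a list median of -0.65, among them Kdr, a receptor for vascular endothelial growth factor (log2 fold change -1.80, SE 0.23), and Cldn5, the tight junction protein of brain vessels (-1.42, SE 0.25). Of 11 tested pericyte and smooth muscle markers 5 fell and 0 rose, with a median of -0.57, among them Pdgfrb (-0.94, SE 0.11). Of 16 tested fibroblast and meningeal markers 1 fell, with a median of -0.29. Summed endothelial markers ranged from 112 to 347 CPM in conditioned libraries and from 226 to 292 CPM in Basal libraries, and no endothelial marker was at 0 in any library. Markers of neurons and other regions moved too. Of 10 tested dentate gyrus markers 4 fell and 1 rose (median -0.15), of 16 neocortex markers 4 fell (median -0.14) and of 10 CA1 markers 2 fell (median -0.15). Choroid plexus markers had a median of 0.81 with 0 of 12 called, and thalamus markers a median of 0.01 with 0 of 14 called. The part of these lists in the collagen differences was not tested.

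**Figure D3:**
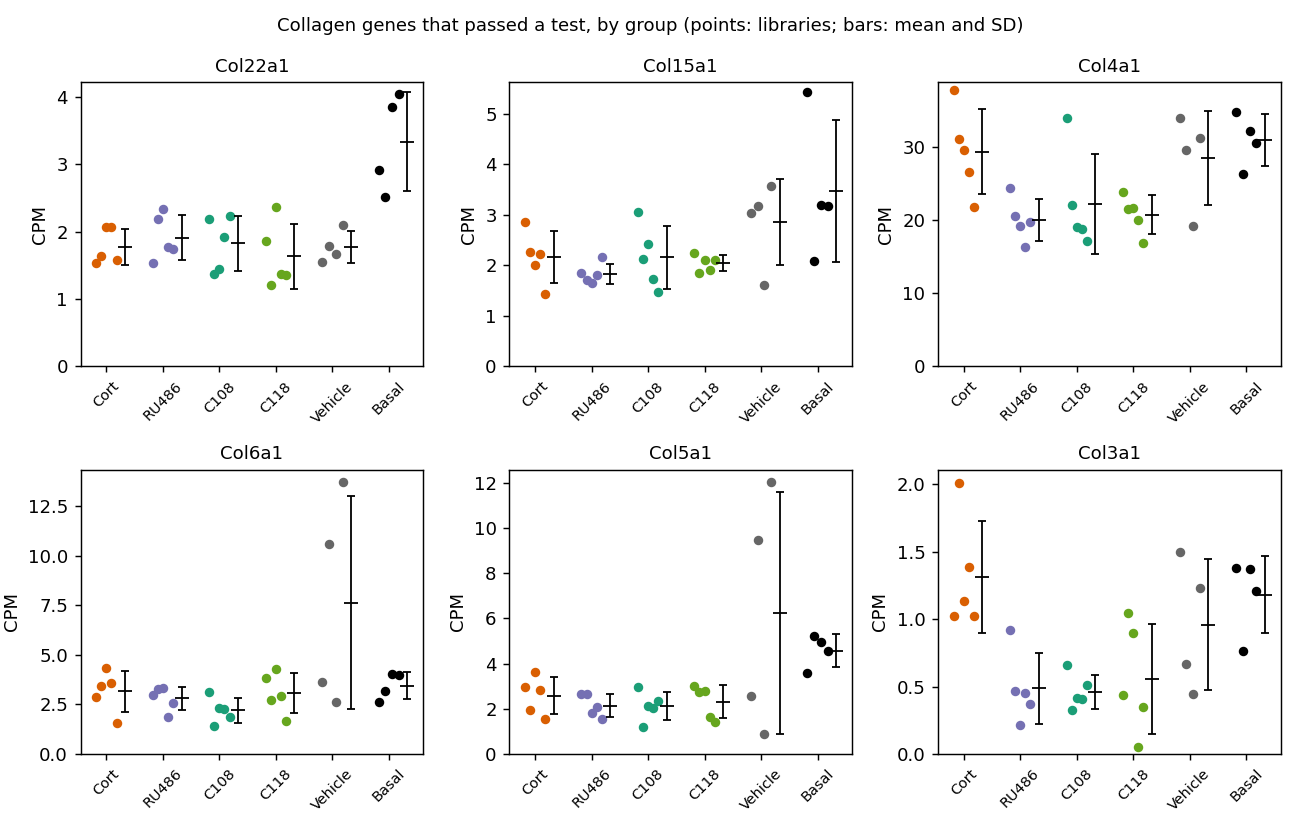
CPM of 6 collagen genes in each library by group, with points for libraries and a bar for the mean and SD of each group, each axis starting at 0. For Col22a1 the Basal points (2.52 to 4.05 CPM) lie above all others, and for Col6a1 and Col5a1 the libraries Vehicle 16 and Vehicle 29 lie above all others.

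Vehicle against Basal compares conditioning without a ligand, together with the vehicle itself. Col22a1 was again lower, at 1.78 ± 0.235 CPM in Vehicle (SD, n = 4) and 3.34 ± 0.736 CPM in Basal (SD, n = 4), and was the 1 member of 39 called (2.56%), against 4.11% of all tested genes (2.47% lower). Its log2 fold change was -0.91 (SE 0.21, edgeR adjusted p = 0.0114). The adjusted p was 0.0547 without Basal 14 and 0.0589 without Basal 27. The 2 members with every Vehicle library below every Basal library were Col22a1 and Col9a1, a separation that 5.76% of all genes had in that direction. The members' median log2 fold change was 0.06 here, against 0.003 over all genes, with 19 members below 0 and 20 above. Of the 10 tested fibril-forming genes 5 lay below 0 and 5 above. The lower median seen for the mean of the 5 conditioned groups was not seen with these 4 Vehicle libraries. Among them, Vehicle 29 had the highest level of the series for 8 tested members. The members' median without Vehicle 16 and Vehicle 29 is not given here. Unadjusted p values under 0.05 were given by 2 members, against 18.1% of all genes. The second was Col6a1 (log2 fold change 1.15, SE 0.37, adjusted p = 0.0733). Without Vehicle 16 and Vehicle 29, Col6a1 was at -0.14.

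The next question was whether a ligand given with conditioning changed collagen genes relative to Vehicle, and the comparisons share the 4 Vehicle libraries. Against Vehicle, 1 of 39 members was lower in C108 and 0 members were called in Cort, RU486 or C118. The called gene was Col6a1, the α1 chain of type VI collagen, which forms beaded filaments around cells. In all tested genes, 0.215% were called for C108 (0.161% lower), 0.00598% for Cort, and 0 for RU486 and for C118. Col6a1 (ENSMUSG00000001119, chromosome 10, 76708792 to 76726168, minus strand) had 3.12, 1.42, 2.32, 2.28 and 1.88 CPM in the C108 libraries, against 3.61, 10.6, 2.62 and 13.7 CPM in Vehicle 3, 16, 23 and 29. The groups overlapped, since C108 8 lay above Vehicle 23. The log2 fold change was -1.79 (SE 0.36, edgeR adjusted p = 0.0384).

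The high Vehicle values came from Vehicle 16 and Vehicle 29, the libraries that stand apart in thalamus, dentate gyrus and astrocyte markers. Without Vehicle 16 the adjusted p was 0.284, without Vehicle 29 it was 0.109, and without both the log2 fold change was -0.50 with an adjusted p of 0.835. The call was also lost without C108 8, 26, 34 or 39, where the adjusted p ranged up to 0.101. The same pair of libraries was high for Col5a1, a chain of type V collagen that sets fibril diameter. Col5a1 (ENSMUSG00000026837, chromosome 2) had 2.96, 1.20, 2.11, 2.03 and 2.34 CPM in the C108 libraries and 2.58, 9.49, 0.892 and 12.02 CPM in Vehicle 3, 16, 23 and 29. The log2 fold change was -1.55 (SE 0.43, adjusted p = 0.0916), and without Vehicle 16 and Vehicle 29 it was 0.28. Col6a2, the partner chain of Col6a1, had 1.20, 0.657, 1.29, 0.913 and 0.711 CPM in the C108 libraries, against 1.86, 3.23, 0.837 and 4.30 CPM in Vehicle 3, 16, 23 and 29. Its log2 fold change was -1.42 (SE 0.34, adjusted p = 0.0657). The part of the region markers in these values was not tested.

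Beyond these, 34 of 39 members lay below 0 for C108 against Vehicle, with a median log2 fold change of -0.46 against -0.00 over all genes, and 15 members (38.5%) had an unadjusted p under 0.05, against 17.4% of all genes. Without Vehicle 16 and Vehicle 29, which leaves 2 Vehicle libraries, 804 of 17135 tested genes had an unadjusted p under 0.05. In the main fit it was 2917 of 16735. The members' median and share without that pair are not given here. The 6 type IV chains were all below 0 (median -0.41), Col4a1 at -0.36 (SE 0.17, adjusted p = 0.282). Col1a2 was at -1.03 (SE 0.43, adjusted p = 0.224) and Col3a1 at -1.05 (SE 0.44, adjusted p = 0.222). Every C108 library lay below every Vehicle library for Col18a1, a basement membrane collagen from which endostatin is cut, and Col6a3, as for 1.32% of all tested genes. For C108 against Vehicle, the endothelial markers had a median of -0.56, the fibroblast and meningeal markers of -0.74, the choroid plexus markers of -2.02 and the thalamus markers of -1.40, with 2 thalamus markers called lower and 0 called in the other 3 lists. Their part was not tested.

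For C118 against Vehicle the median was -0.28 with 32 members below 0, and 8 members (20.5%) had an unadjusted p under 0.05, against 8.01% of all genes. Col6a1 was at -1.31 (SE 0.35, edgeR adjusted p = 0.201), Col6a2 at -1.24 (SE 0.33, adjusted p = 0.207) and Col4a1 at -0.46 (SE 0.17, adjusted p = 0.476). For RU486 against Vehicle the median was -0.36 with 25 members below 0, and 12 members (30.8%) had an unadjusted p under 0.05, against 8.16% of all genes. There Col6a1 was at -1.45 (SE 0.35, adjusted p = 0.177), Col4a1 at -0.51 (SE 0.17, adjusted p = 0.379) and Col15a1 at -0.64 (SE 0.24, adjusted p = 0.438). For Cort against Vehicle the median was -0.02 with 21 members below 0, and 4 members (10.3%) had an unadjusted p under 0.05, against 11.6% of all genes, with Col6a1 at -1.28 (SE 0.35, adjusted p = 0.168). Without Vehicle 16 and Vehicle 29, Col6a1 was at -0.02 in the comparison with C118, -0.16 with RU486 and 0.01 with Cort. In the same fits Col6a2 was at -0.32 with C118 and -0.27 with RU486, and Col5a1 at 0.40 with C118, 0.56 with Cort and 0.29 with RU486. Of 17135 genes tested there, 306 had an unadjusted p under 0.05 for C118, 362 for RU486 and 518 for Cort. In the main fit it was 1340, 1366 and 1947 of 16735. The members' medians and shares without that pair are not given here. Without Vehicle 23, the lowest Vehicle library for Col5a1, Col6a1 and Col6a2, 3 members were called for Cort (1.003% of all genes), 4 for RU486 (1.22% of all genes), 3 for C118 (1.26% of all genes) and 7 for C108 (3.87% of all genes).

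**Figure D4:**
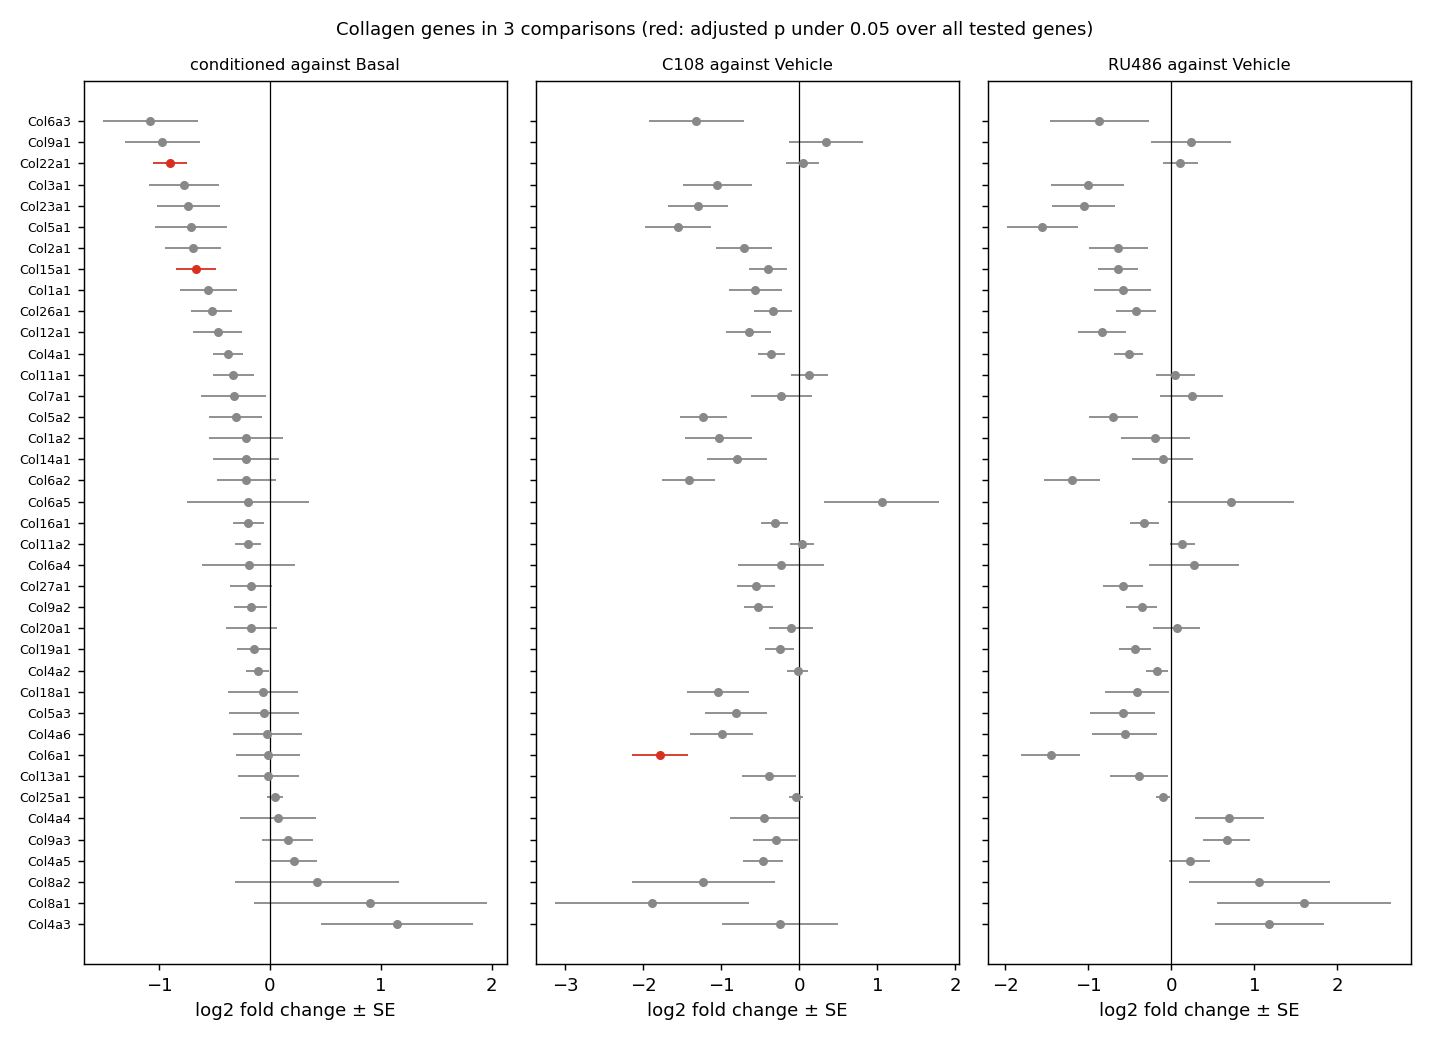
Log2 fold change and SE of each tested collagen gene for the conditioned groups against Basal, C108 against Vehicle and RU486 against Vehicle, with genes in the order of the first comparison and red points for an adjusted p under 0.05 over all tested genes. Most points of the C108 comparison lie left of 0 (34 of 39), and the red points are Col22a1, Col15a1 and Col6a1.

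The ligands were also compared with each other, in 6 pairs. In none of the 6 did a collagen gene pass the edgeR test at an adjusted p under 0.05, and of all tested genes 0.0538% were called for Cort against RU486 (0.0478% higher) and 0 for the other pairs. At an unadjusted p under 0.05 there were 12 of 39 members (30.8%) for Cort against C108, against 4.88% of all genes, and 6 (15.4%) for Cort against RU486, against 5.34%. There were 5 (12.8%) for Cort against C118, against 4.26% of all genes, and 6 (15.4%) for C108 against RU486, against 5.74%. For C118 against RU486 there were 4 (10.3%), against 1.83% of all genes, and for C108 against C118 there was 1 (2.56%), against 2.40%. For Cort against C108, 817 of all 16735 tested genes had such a p. It was 608 of 16874 without Cort 4, RU486 6 and RU486 25, and 1028 of 16691 without Cort 36, C108 39 and C118 38. The members' shares in those fits are not given here. Partner chains can vary together across libraries, as given further on, so members are not independent. Col3a1 had the smallest p of the members in each of the 3 comparisons of Cort with another ligand. It had 1.02, 2.01, 1.14, 1.38 and 1.02 CPM in the Cort libraries, against 0.922, 0.469, 0.213, 0.455 and 0.369 CPM in the RU486 libraries and 0.657, 0.328, 0.413, 0.406 and 0.508 CPM in the C108 libraries. The C118 libraries had 0.437, 1.04, 0.895, 0.0528 and 0.351 CPM of Col3a1 and overlapped with Cort. Every Cort library lay above every RU486 library for 3 members, Col3a1, Col6a2 and Col2a1, and for 0.651% of all tested genes. The same 3 members had every Cort library above every C108 library, as had 0.514% of all genes. The log2 fold change for Cort was 1.45 against RU486 (SE 0.41, adjusted p = 0.388), 1.49 against C108 (SE 0.41, adjusted p = 0.63) and 1.25 against C118 (SE 0.40, adjusted p = 0.74). Col4a1 was at 29.4 ± 5.85 CPM in Cort, against 20.02 ± 2.90 CPM in RU486 (SD, n = 5 each), a difference of 0.55 on the log2 scale (SE 0.17, adjusted p = 0.454). The members' median log2 fold change was 0.44 for Cort against C108, with 32 of 39 above 0, 0.16 for Cort against RU486 and 0.16 for Cort against C118. It was -0.17 for C108 against RU486, -0.01 for C118 against RU486 and -0.11 for C108 against C118.

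Across all 6 groups at once, 6 of 39 members (15.4%) differed in an omnibus edgeR test, against 4.73% of all tested genes. They were Col22a1 (adjusted p = 0.00918), Col6a1 (0.0164), Col6a2 (0.0278), Col3a1 (0.0343), Col4a1 (0.0392) and Col5a1 (0.0471). At an unadjusted p under 0.05 there were 17 members (43.6%), against 18.6% of all genes. The Col6a1 call was lost without Vehicle 16 (adjusted p = 0.106) or Vehicle 29 (0.174), and without both its adjusted p was 0.656. Without both, Col22a1 (adjusted p = 0.0103), Col5a1 (0.0369) and Col3a1 (0.0452) still passed. Col4a1 (0.0812) and Col6a2 (0.109) did not pass in that fit. Leaving out 1 library at a time ended the Col22a1 call in 2 of 28 cases (Basal 14 and Basal 27, adjusted p up to 0.0933), the Col6a2 call in 4, the Col3a1 call in 11, the Col4a1 call in 20 and the Col5a1 call in 24.

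Some collagen genes were high in the libraries rich in choroid plexus markers, and these genes were chosen after their values were seen. Col8a1 was at 19.1 CPM in RU486 6, 7.23 CPM in RU486 25 and 5.93 CPM in Cort 4, against 0.109 to 4.21 CPM in the other 25 libraries. The highest of those was Vehicle 16, which also had the fourth highest choroid plexus sum (972 CPM). Col8a2 was at 23.5, 15.4 and 8.85 CPM in RU486 6, RU486 25 and Cort 4, against 0.266 to 7.90 CPM elsewhere. Col9a3 was at 30.2, 21.4 and 20.4 CPM in the same 3 libraries, against 6.70 to 14.6 CPM elsewhere. Col4a3 was at 1.66, 1.37 and 1.13 CPM and Col4a4, its partner in a network best known from the kidney filter, at 3.13, 2.43 and 1.89 CPM in these libraries, in both cases above the other 25. For RU486 against Vehicle, Col9a3 was at 0.67 (SE 0.28, edgeR adjusted p = 0.513), and without the 3 libraries at 0.02 (SE 0.20). Col8a1 was at 1.60 (SE 1.05) in that comparison, and without them at -2.56 (SE 0.95, adjusted p = 0.477). With these 3 libraries left out, the direction of Col8a1 turned. That fit left out no Vehicle library and so kept Vehicle 16, high in Col8a1 and in choroid plexus markers.

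In another pattern chosen after its values were seen, Col6a3, the long α3 chain of type VI collagen, had 12.4 CPM in Basal 1, against 0.711 to 5.82 CPM in the other libraries. Basal 1 also had the highest level of Col1a1 (5.02 CPM), Col15a1 (5.43 CPM) and Col23a1 (6.65 CPM).

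Chains that form a molecule together were then compared across libraries, as log2 CPM minus the group mean, with Col3a1 and Col1a1 added, whose separate molecules share fibrils, which made 12 pairs over 28 libraries. P-values came from 100000 permutations within groups and were adjusted over the 12 pairs by the Benjamini-Hochberg method. The type VIII chains were the closest, with Pearson's r = 0.885 (permutation p = 2e-05, adjusted 0.00024) and Spearman's rho = 0.854 (permutation p = 2e-05). Without RU486 6 and Cort 4, the farthest libraries for Col8a1, r was 0.841. Col4a3 and Col4a4 had r = 0.810 (permutation p = 0.00013, adjusted 0.00052) and rho = 0.693 (permutation p = 0.00073), and r was 0.699 without the 2 farthest libraries. Both pairs were high in the 3 libraries rich in choroid plexus markers, whose part was not tested. Col1a1 and Col1a2 had r = 0.746 (permutation p = 0.00011, adjusted 0.00052) and rho = 0.804 (permutation p = 2e-05), with r = 0.763 without the 2 farthest libraries. Col6a1 and Col6a2 had r = 0.738 (permutation p = 0.00105, adjusted 0.00315) and rho = 0.596 (permutation p = 0.0102), with r = 0.577 without Vehicle 29 and Vehicle 23.

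Col4a1 and Col4a2, the head-to-head pair with overlapping first exons, had r = 0.550 (permutation p = 0.0241, adjusted 0.0482) and rho = 0.353 (permutation p = 0.104, adjusted 0.156). Without Vehicle 23 and C108 8, the farthest libraries for Col4a1, r was 0.113. Leaving out the extremes of a gene can by itself lower r. Col4a5 and Col4a6 had r = 0.491 (permutation p = 0.0151, adjusted 0.0363) and rho = 0.524 (permutation p = 0.0115), and without the 2 farthest libraries r was 0.515 with an adjusted p of 0.067. The other 6 pairs missed the threshold for r. Among them r was 0.546 for Col5a1 and Col5a2 (permutation p = 0.0666, adjusted 0.0998; rho = 0.287, permutation p = 0.214) and -0.143 for Col6a1 and Col6a3 (permutation p = 0.402, adjusted 0.424; rho = -0.0733, permutation p = 0.721). Libraries share their depth and cell makeup between both genes of a pair, so these values describe joint variation only.

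**Figure D5:**
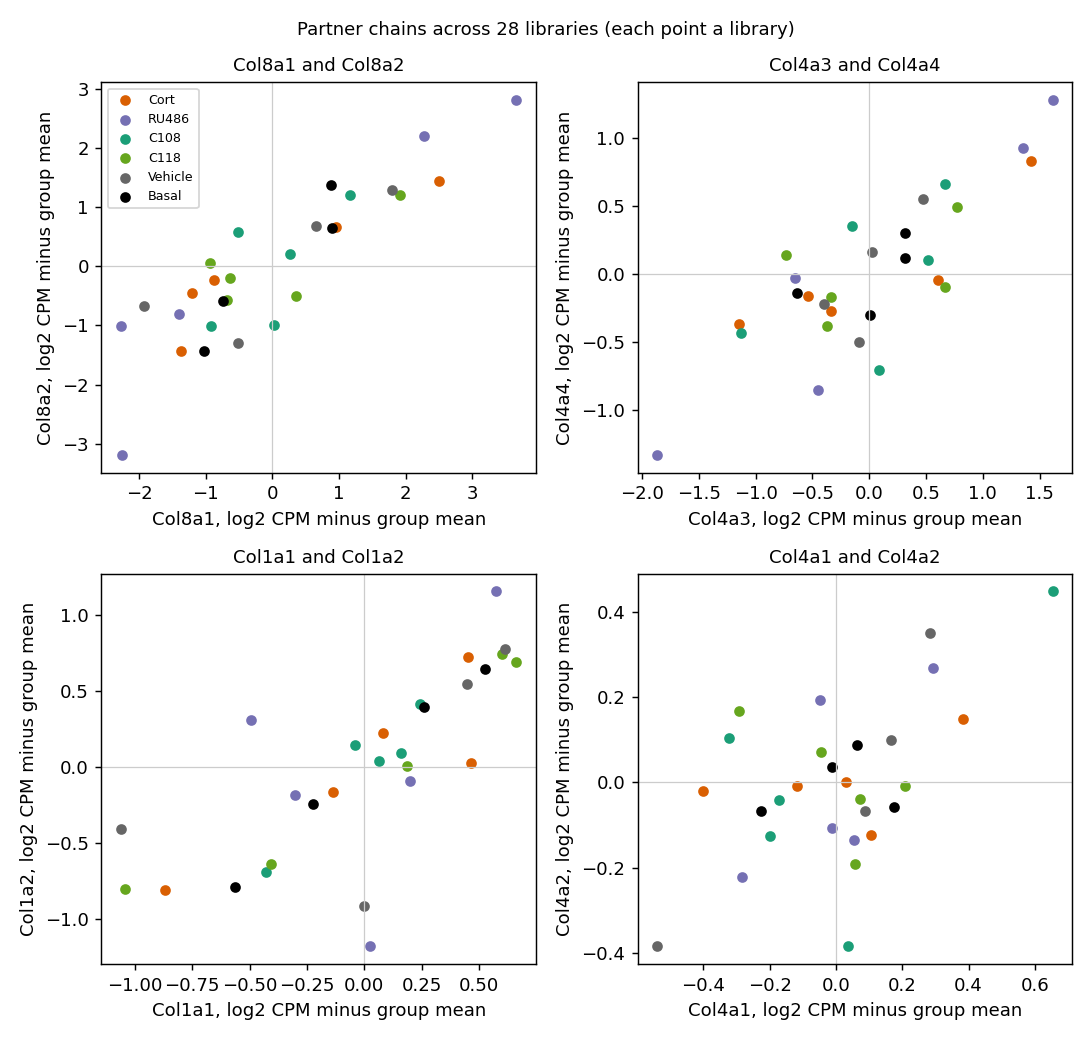
Log2 CPM minus the group mean of 4 pairs of partner chains in 28 libraries, each point a library coloured by group. Points follow a line for Col8a1 and Col8a2 (r = 0.885), Col4a3 and Col4a4 (0.810) and Col1a1 and Col1a2 (0.746), and scatter for Col4a1 and Col4a2 (0.550, and 0.113 without 2 libraries).

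The genes that make, cross-link, bind and break down collagen were read in the same tests. For the conditioned groups against Basal, of 21 tested modifying, folding and secretion enzymes 1 rose and 0 fell, and 11.2% of all tested genes were called in this comparison (4.89% higher and 6.29% lower). The riser was Tmem38b, an ion channel of the endoplasmic reticulum needed for collagen secretion (log2 fold change 0.25, SE 0.08, edgeR adjusted p = 0.0432). Of 11 tested procollagen proteinases and cross-linking enzymes 1 rose and 2 fell. Pxdn, the peroxidase that cross-links type IV collagen, was at 52.6 ± 6.86 CPM in Cort, 49.0 ± 5.63 CPM in RU486, 52.2 ± 8.80 CPM in C108, 53.0 ± 8.01 CPM in C118 and 55.1 ± 10.6 CPM in Vehicle, against 73.3 ± 7.46 CPM in Basal (SD, n = 5 for the ligands and 4 for Vehicle and Basal). It fell by 0.49 on the log2 scale (SE 0.10, adjusted p = 0.00186). Adamts2, which removes the N-terminal propeptide, fell by 0.54 (SE 0.18, adjusted p = 0.0425), and Pcolce2, an enhancer of C-terminal processing, rose by 0.66 (SE 0.20, adjusted p = 0.0346).

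Of 9 tested collagen receptors 2 fell and 0 rose: Ddr1, a receptor tyrosine kinase activated by collagen (log2 fold change -0.46, SE 0.10, edgeR adjusted p = 0.00286), and Itga1, an integrin chain that binds collagen (-0.65, SE 0.22, adjusted p = 0.0486). Of 10 tested degrading enzymes and inhibitors 2 fell, Mmp14 (-0.32, SE 0.08, adjusted p = 0.00659) and Mmp16 (-0.32, SE 0.09, adjusted p = 0.0236), both membrane-bound matrix metalloproteinases. Of 11 tested other basement membrane genes 2 fell, Lama4, a laminin chain of vessels (-0.95, SE 0.18, adjusted p = 0.000984), and Agrn, agrin (-0.35, SE 0.09, adjusted p = 0.0142). The list medians were 0.01 for the modifying enzymes, -0.28 for the proteinases and cross-linking enzymes, -0.21 for the receptors, -0.07 for the degrading enzymes and -0.28 for the other basement membrane genes, against 0.01 over all genes. For Vehicle against Basal, Ddr1 alone of these lists was called (-0.53, SE 0.14, adjusted p = 0.0224). None of these lists had a called gene in the comparison of a ligand with Vehicle or of 2 ligands, and the omnibus test called Lama4, Mmp14, Ddr1 and Pxdn.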

How the data were processed

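Dorsal hippocampal RNA of 28 libraries was measured by RNA-seq. Per the labels' protocols, a NucleoSpin RNA kit was used and stranded libraries of enriched mRNA were read in pairs on a DNBseq instrument. The deposited values are raw counts for each Ensembl gene, which the authors made with HTSeq 0.6.1 on mm10, per the submitters' processing notes, which also name FastQC and MultiQC. Not given in the sources used here are the aligner, the annotation release and the strand setting of the counting. The 5 summary rows of the table (12.6% to 19.7% of a library's total) were left out, and 0 columns went unused. Without a stated strand setting, reads of overlapping antisense genes cannot be told apart for Col4a1 and Col4a2 (22 bases of exon), Col9a3 and Tcfl5 (234), Col4a3 and C430014B12Rik (563), Col5a1 and Gm13372 (113), Col15a1 and Gm12426 (14) or Col22a1 and Gm16308 (16).

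Gene models came from GENCODE M21, and 50376 of the 50686 genes had a position in it. Genes were kept by filterByExpr of edgeR 4.0.16 in R 4.3.3 (minimum count 10, minimum total 15), which left 16735 genes. One quasi-likelihood fit (robust, TMM library sizes, 22 residual degrees of freedom) covered all 28 libraries, and two-sided p-values were adjusted by the Benjamini-Hochberg method over all 16735 genes, with a threshold of 0.05. Standard errors (SE) come from the log2 fold change and the F statistic (its size over the root of F). CPM are counts scaled to 1e+06 of the TMM library size, RPKM divide them by the kilobases of annotated exon, and logarithms of CPM used a prior count of 2. With 16.2 to 20.3 M counts per library (M, 1e+06), 1 count is worth about 0.0524 CPM, so members below 1 CPM rest on few counts. On simulated counts for C108 against Vehicle, the fit recovered 157 of 200 genes changed by a fold of 2 and called 8 unchanged genes, of 16599 genes. This was 78.9% of the changed genes that passed the filter. Genes were drawn independently, with no shift shared by many genes of a library, so the recovery need not hold for the real libraries. Within groups, each of the 52 pairs of libraries differed by more than counting noise, with a chi-square per degree of freedom of at least 5.94.

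The members, classes, pathway lists, marker lists, partner pairs and tests were chosen with earlier results of these data known. Genes given in full are members called in any comparison, the 5 highest in RPKM, the 5 with the smallest omnibus p, and Col1a1, Col1a2, Col3a1, Col4a1, Col4a2 and Col25a1, with up to 4 called genes of each pathway list. Other members that are named (among them Col8a1, Col8a2, Col4a3, Col4a4, Col5a2, Col6a3, Col18a1 and Col23a1) were chosen after their values were seen. Correlations used SciPy 1.17.1. Alternatives were DESeq2 1.42.0, limma-voom (limma 3.58.1), DESeq2-type size factors (RLE), no or a stricter count filter (minimum 20), fits of the compared groups alone, another prior count, levels not centred on group means, another gene length, each library left out in turn, and libraries that stand apart left out. The set Cort 4, RU486 6 and RU486 25 and the set Cort 36, C108 39 and C118 38 were chosen after seeing the data.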

Additional observations from a re-analysis of the deposited data

Results flagged for a closer look

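Single libraries lay far from the rest of their group for 7 of the 234 combinations of a tested collagen gene and a group that were checked, by the share of the group's log2 CPM range that the gap to the nearest library took up. Chance flags about 1 in 20 such combinations. Col11a1, a chain of type XI collagen, was highest in C108 8, at a log2 CPM of 3.73 (13.1 CPM), with the next C108 library at 6.76 CPM. Col20a1 was lowest in Cort 36, at a log2 CPM of 1.20 (2.20 CPM, next 5.01 CPM), and so was Col5a3, a chain of type V collagen, at -0.96 (0.409 CPM, next 1.53 CPM). Col4a4 was highest in Cort 4, at a log2 CPM of 1 (1.89 CPM, next 0.989 CPM), the Cort library with the most choroid plexus marker RNA. Col2a1, the collagen of cartilage, was also highest in Cort 4, at 0.11 (0.972 CPM, next 0.582 CPM). Col9a1 was highest in Cort 11, at -1.07 (0.370 CPM, next 0.155 CPM), and Col9a2 was lowest in C118 38, at 0.50 (1.31 CPM, next 1.63 CPM). No cause was tested for any of these.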

How the results depend on the processing

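No paired analysis was possible because each number in a sample title occurs once, so the groups share none. Alternatives were counted for results on the members given in full that had an unadjusted p under 0.05 in the main fit. Of these, 1058 kept their direction and side of the threshold under an alternative (for the omnibus test, the side alone). A further 92 lost a call, 27 gained one and 6 reversed. Most of the results counted were not called in the main fit, and the 92 losses all fell on results called there. These 6 reversals came without Vehicle 16 and Vehicle 29, which leaves 2 Vehicle libraries: Col5a1 against Vehicle was then at 0.28 for C108, 0.40 for C118, 0.56 for Cort and 0.29 for RU486, and Col6a1 at 0.0105 for Cort against Vehicle and -0.14 for Vehicle against Basal. Col8a1, which is not among those members, turned for RU486 against Vehicle as given above. For conditioned against Basal, the Col22a1 call was kept in 36 of 36 alternatives and the Col15a1 call in 35 of 36. The Col22a1 call for Vehicle against Basal was kept in 13 of 15, and the Col6a1 call for C108 against Vehicle in 6 of 17. Of 36 alternatives, the omnibus call was kept in 34 for Col22a1, 31 for Col6a1 and 28 for Col6a2. It was kept in 24 for Col3a1, 13 for Col4a1 and 8 for Col5a1. The counts below stand beside the share of all tested genes called in the same fit.

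For C108 against Vehicle, the main count of 1 called member became 5 with DESeq2 (1.76%) and 0 without a filter (0.0631%). It became 0, with 0 of all genes called, with limma-voom, with the compared groups alone, without Vehicle 16 and Vehicle 29, and without Cort 36, C108 39 and C118 38. DESeq2 called 1 member for Cort (0.508%), 1 for RU486 (0.263%) and 2 for Vehicle against Basal (6.02%). The omnibus count of 6 became 11 with DESeq2 (8.94%), and 3 with limma-voom (4.11%), without Cort 36, C108 39 and C118 38 (4.21%), without Cort 4, RU486 6 and RU486 25 (4.36%) and without Vehicle 16 and Vehicle 29 (4.07%). The count for the conditioned groups against Basal became 5 without Vehicle 16 and Vehicle 29 (12.2%). Leaving out 1 library at a time gave 0 to 7 called members for C108 against Vehicle (0 to 3.87%), 0 to 3 for C118 (0 to 1.26%), 0 to 3 for Cort (0 to 1.003%), 0 to 4 for RU486 (0 to 1.22%), 0 to 2 for Vehicle against Basal (2.05% to 5.55%), 1 to 5 for conditioned against Basal (4.83% to 12.6%), and 2 to 10 for the omnibus test (1.87% to 6.94%). The cause of these changes was not tested. No ligand pair gained a call under any alternative run. Of the 12 pairs, not centring on group means gave r = 0.574 for Col3a1 and Col1a1, 0.637 for Col5a1 and Col5a2 and 0.441 for Col11a1 and Col11a2, which then passed, and 0.168 for Col6a1 and Col6a3. Without the 2 farthest libraries r was 0.113 for Col4a1 and Col4a2 and 0.515 for Col4a5 and Col4a6, which no longer passed. Leaving out 1 library gave 0.375 to 0.628 for Col4a1 and Col4a2, 0.413 to 0.581 for Col4a5 and Col4a6, 0.343 to 0.633 for Col5a1 and Col5a2, 0.340 to 0.557 for Col3a1 and Col1a1, and 0.338 to 0.480 for Col11a1 and Col11a2.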

Other observations

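The balance of the partner chains Col4a1 and Col4a2 was looked at after the values were seen. The ratio of their RPKM averaged 0.804 ± 0.138 in Cort, 0.621 ± 0.0692 in RU486, 0.624 ± 0.141 in C108 and 0.640 ± 0.122 in C118 (SD, n = 5 each), 0.781 ± 0.0748 in Vehicle and 0.826 ± 0.0979 in Basal (SD, n = 4 each). It ran from 0.455 in C108 39 to 0.965 in Basal 1. Every RU486 library (0.522 to 0.705) lay below every Basal library (0.736 to 0.965), while each of the other groups overlapped with Basal. The ratio was not tested. For the type VI chains Col6a1 and Col6a2, the ratio averaged 3.04 ± 0.739 in Cort, 4.86 ± 1.47 in RU486, 4.45 ± 0.673 in C108 and 5.70 ± 2.37 in C118 (SD, n = 5 each), 5.48 ± 1.20 in Vehicle and 4.42 ± 1.90 in Basal (SD, n = 4 each).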
